A study of Mus musculus with 10 samples.

Results

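A group of 8 genes of the coelomic epithelium, the surface layer of the gonad, was followed: the uroplakins Upk3b and Upk1b, the membrane proteins Lrrn4 and Msln, and the keratins Krt7, Krt8, Krt18 and Krt19. They were chosen by gene symbol and make up 8 of the 24470 genes of the count table. The samples were male gonads of C57BL/6 mouse embryos at E12.5 (embryonic age in days), cultured for 48 h with the mesonephros attached, which was dissected off before RNA was prepared. A gonad of each of 5 embryos (M1 to M5) received 75 µM of a glycogen phosphorylase inhibitor (GPI) and its partner received the vehicle DMSO, so that 5 GPI libraries were paired with 5 vehicle libraries. Total counts ranged from 10203679 to 15590223 in vehicle libraries and from 11025409 to 15635322 in GPI libraries. Inhibition of glycogen phosphorylase blocks the breakdown of stored glycogen, and the comparison asks how the surface epithelium genes differed between the treated and untreated gonad of an embryo.

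The coelomic epithelium is a mesothelium, a sheet of mesoderm-derived epithelial cells that lines the body cavity and covers the gonad. In the early gonad it divides and supplies cells to the tissue beneath. Uroplakins are membrane proteins best known from the plaques of the bladder surface, and Upk3b also marks mesothelium. Keratins form the intermediate filaments of epithelial cells in general, so the keratins followed here are not particular to the surface layer. Each filament is built from a type II chain (such as Krt7 or Krt8) paired with a type I chain (such as Krt18 or Krt19).

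Of the 8 genes, 7 passed the filter on low counts, and Msln did not. With edgeR's quasi-likelihood test, paired by embryo and with Benjamini-Hochberg adjustment over 13941 tested genes, 1 of the 7, Upk1b, was called higher with GPI and 0 were called lower. Among all tested genes 11.1% were called higher and 11.9% lower. Of the genes called, 48.3% were higher, beside 38.6% under library totals alone (1238 higher and 1972 lower) and 56.4% with trends of GC content and transcript length removed (1878 higher and 1452 lower). At an unadjusted p under 0.05 the counts of the 7 were also 1 and 0, and DESeq2 called 1 higher and 0 lower. The vehicle and GPI libraries overlapped in each of the 7 genes, whereas they did not overlap in 16.1% of all tested genes. The median log2 fold change of the 7 was -0.04, beside 0.02 for all tested genes. In bulk tissue, fewer cells of a type and less RNA per cell cannot be told apart.

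**Figure D1:**
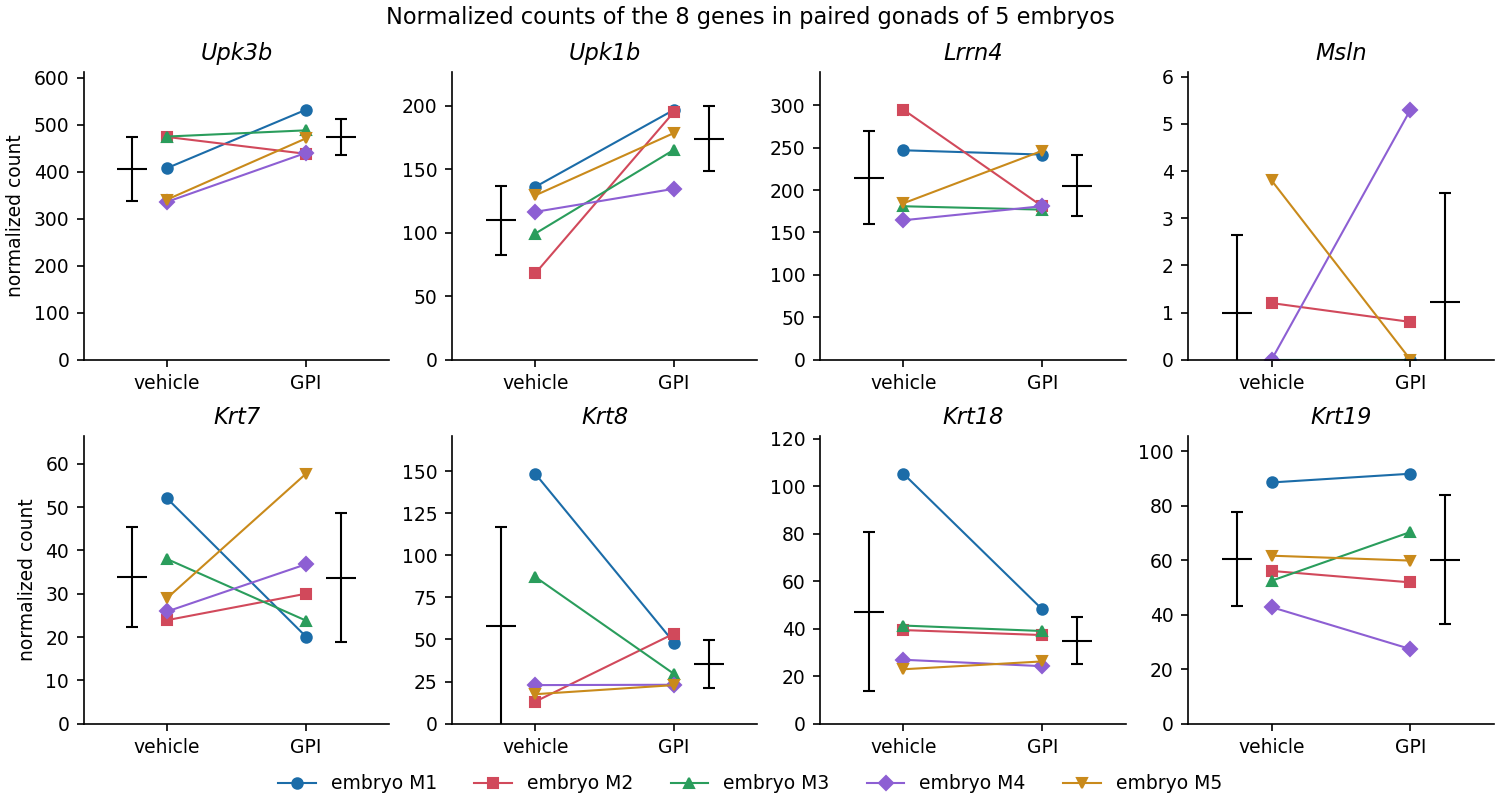
Normalized counts (counts scaled to the mean effective library size) of the 8 genes, with vehicle and GPI on the horizontal axis and a line for each embryo; black bars are the mean ± SD of 5 libraries and are drawn only above 0. Upk1b is the gene whose line goes up in 5 of 5 embryos, and the Krt8 and Krt18 values of the M1 vehicle library, 148.4 and 105.2, lie above those of the other libraries.

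Upk3b (Entrez Gene 100647) lies at chr5:136038496-136044993 on the plus strand of mm10. Its promoter is shown because Upk3b had the highest level per length of the 8 genes. It is the GRCm38.p6 plus-strand window chr5:136038246-136038545, 250 bases before to 50 after the start of the gene, from RefSeq, which held promoters of 5 of the 8 genes (Upk3b, Lrrn4, Krt7, Krt8 and Krt18). Capitals mark a match to GGAATG, the core letters bound by TEAD factors, read here on the opposite strand.
Upk3b: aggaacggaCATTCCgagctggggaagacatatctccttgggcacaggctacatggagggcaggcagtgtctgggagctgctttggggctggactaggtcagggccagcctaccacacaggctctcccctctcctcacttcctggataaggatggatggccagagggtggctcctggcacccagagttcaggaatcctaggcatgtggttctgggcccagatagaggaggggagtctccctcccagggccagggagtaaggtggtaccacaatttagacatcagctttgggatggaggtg
The letters GGAATG, searched on both strands, occurred in 14.7% of the 32851 promoters of the same length and in 2 of the 5 available here, those of Upk3b and Lrrn4.

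Upk3b encodes a membrane protein of the uroplakin III group. Its normalized counts in the vehicle libraries of embryos M1 to M5 were 407.5, 473.7, 474.6, 335.7 and 340.6. In the GPI libraries of the same embryos they were 531.6, 437.8, 487.8, 439.8 and 470.7. The groups overlapped, and the GPI library was the higher of the pair in 4 of 5 embryos, with M2 the exception. The means were 406 ± 68.0 with vehicle and 474 ± 38.7 with GPI (SD, n = 5 libraries each). The log2 fold change of Upk3b was 0.23 (SE 0.11, 95% interval 0.00 to 0.47), and it did not pass the threshold (edgeR, adjusted p = 0.155). It passed only when trends with GC content and transcript length were removed in the fit with the replicate block, where its log2 fold change was 0.32 (edgeR, adjusted p = 0.04998).

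Upk1b (Entrez Gene 22268, chr16:38773184-38800203, minus strand) encodes a tetraspanin that partners the uroplakin III proteins in urothelium. Its normalized counts in vehicle libraries M1 to M5 were 136.2, 68.0, 99.4, 116.5 and 129.5. In GPI libraries M1 to M5 they were 197.0, 195.4, 165.5, 134.7 and 178.7. Each GPI library exceeded its own partner, and the groups overlapped only in that the M4 GPI library lay just below the M1 vehicle library. The means were 109.9 ± 27.3 and 174 ± 25.6 (SD, n = 5). Upk1b was higher with GPI by a log2 fold change of 0.68 (SE 0.18, 95% interval 0.28 to 1.07; edgeR, adjusted p = 0.0159). Between the gonads of an embryo the difference was least in M4 (0.21 on the log2 scale) and greatest in M2. The call was lost without embryo M3 (without replicate 3), at a log2 fold change of 0.65 (edgeR, adjusted p = 0.0643, in a range of 0.00445 to 0.46 over the alternatives). Without embryos M1, M2 and M3, left out after their marker values described below were seen, the log2 fold change was 0.32 (edgeR, adjusted p = 0.46).

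Lrrn4 (Entrez Gene 320974, chr2:132868516-132880862, minus strand) encodes a membrane protein with leucine-rich repeats that is found in mesothelium. Its normalized counts were 246.9, 294.7, 180.9, 164.4 and 184.4 in vehicle libraries M1 to M5. They were 241.8, 180.8, 176.9, 181.0 and 246.3 in GPI libraries M1 to M5. The groups lay over each other, and GPI was the higher of the pair in 2 of 5 embryos. The log2 fold change was -0.04 (SE 0.15; edgeR, adjusted p = 0.877), with a 95% interval of -0.38 to 0.29. It changed sign, without a call, when the GC and length trend was removed (0.04) and without replicate 2 (0.13).

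Msln (Entrez Gene 56047, chr17:25748613-25754327, minus strand) encodes mesothelin, a lipid-anchored surface protein named after the mesothelium. It had 0 counts in 6 of 10 libraries and 6 counts in all over the 5 libraries of each group. The highest count in a library was 5, in vehicle M5 and in GPI M4. No fold change is given for it. A count of 0 allows up to 3 counts, which is 0.22 to 0.277 CPM in the 6 libraries at 0, and this limit covers counting error only.

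Levels were compared between genes per kilobase of transcript. The length was that of the longest GENCODE transcript, with a curated RefSeq match where there was one. It was 3530 bases for Upk3b and 4094 for Krt7, and the levels depend on this choice. In vehicle libraries Upk3b was at 115 ± 19.3 normalized counts per kilobase, Upk1b at 58.0 ± 14.4 and Lrrn4 at 57.7 ± 14.8 (SD, n = 5). Krt19 was at 38.3 ± 10.9, Krt18 at 32.8 ± 23.2, Krt8 at 29.5 ± 30.1 and Krt7 at 8.24 ± 2.82. Upk3b lay above the spread of the others, and those of Upk1b, Lrrn4, Krt19, Krt18 and Krt8 overlapped. Msln was the lowest, at 0.462 ± 0.764. In GPI libraries the level of Upk1b per kilobase was 92.0 ± 13.5 and that of Lrrn4 55.3 ± 9.52.

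The vehicle libraries of M1 and M3 and the GPI library of M2 held the highest counts of Cdh16, a cadherin of mesonephric tubules and duct that was named after its values were seen. The normalized counts of Cdh16 in vehicle libraries M1 to M5 were 112.9, 1.2, 48.0, 0.0 and 5.3. In GPI libraries M1 to M5 they were 10.1, 21.1, 2.9, 0.0 and 4.4. In the other libraries Cdh16 was at 10.1 or below, and it did not pass the filter on low counts. Gata3, Calb1, Ret, Sim1, Lhx1, Tfap2b and Cdh6, of the same list, were not highest in the same 3 libraries. Gata3 was at 218.4 in M2 vehicle, beside 108.5 in M1 vehicle and 122.4 in M2 GPI, and Calb1 was highest in M2 vehicle, at 10.7. In M2 GPI Ret was at 0.8 and Sim1 at 0.0.

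The whole mesonephric list had 12 genes, of which 3 were tested (Pax8, Gata3 and Cdh6) and 0 were called in either direction by edgeR, with 0 at an unadjusted p under 0.05 and 0 by DESeq2. Its median log2 fold change was 0.10. Its summed normalized counts in vehicle libraries M1 to M5 were 3741.6, 990.4, 1871.5, 804.8 and 686.4. In GPI libraries they were 2035.9, 2074.6, 1104.9, 1141.5 and 1243.2. Cdh6 was the most abundant gene of the list, and by this sum the GPI library of M1 also lay above the vehicle library of M3. Cdh6 itself had a log2 fold change of 0.33 (edgeR, adjusted p = 0.444) and was called higher without embryos M1 and M3, at 1.06 (edgeR, adjusted p = 0.000352). Those were the 2 embryos in which Cdh6 was lower with GPI, so leaving them out could only raise the value. Wnt9b, Tfap2b and Sim1 were at 0 in 5 or more libraries. Pax2, which defines the duct and tubules, had 28.8, 9.5, 11.2, 1.0 and 0.0 normalized counts with vehicle and 1.1, 29.2, 7.6, 3.2 and 7.6 with GPI.

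Krt8 (Entrez Gene 16691, chr15:101996711-102004342, minus strand) and Krt18 (Entrez Gene 16668, chr15:102028216-102032026, plus strand) are the type II and type I chains of simple epithelia. Their start sites lie 23874 bases apart and point away from each other. Their promoters are shown because both genes were highest in the same library. They are the GRCm38.p6 windows chr15:102004293-102004592, minus strand, for Krt8 and chr15:102027966-102028265, plus strand, for Krt18, from RefSeq. Capitals mark TATAAA, the TATA box letters, and CAGGTG, the E-box letters bound by SNAI factors, on either strand.
Krt8: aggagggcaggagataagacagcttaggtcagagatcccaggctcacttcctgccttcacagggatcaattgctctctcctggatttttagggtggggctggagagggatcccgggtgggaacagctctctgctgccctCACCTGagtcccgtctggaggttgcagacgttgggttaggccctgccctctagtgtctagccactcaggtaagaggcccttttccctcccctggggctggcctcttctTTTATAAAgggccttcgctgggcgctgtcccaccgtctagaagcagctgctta
Krt18: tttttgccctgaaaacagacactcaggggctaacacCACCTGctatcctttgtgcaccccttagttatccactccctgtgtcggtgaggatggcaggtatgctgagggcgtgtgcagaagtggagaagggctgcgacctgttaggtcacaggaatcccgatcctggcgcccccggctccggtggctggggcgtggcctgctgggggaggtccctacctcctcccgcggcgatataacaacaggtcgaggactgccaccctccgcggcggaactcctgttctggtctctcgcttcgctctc
TATAAA occurred in 13.6% of all 32851 promoters and, of the 5 available here, in that of Krt8, as a pair of overlapping matches on opposite strands. These matches begin at -3 and -1 from the annotated start of the gene and run across it. CAGGTG occurred in 20.2% of all promoters and in 3 of the 5 (Krt7, Krt8 and Krt18). GGGCGG, the GC box, occurred in 35.7% and in Krt7 alone, and TGANTCA, the AP-1 letters, in 7.81% and in 0 of the 5.

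The normalized counts of Krt8 in vehicle libraries M1 to M5 were 148.4, 13.1, 87.1, 22.9 and 17.5. In GPI libraries M1 to M5 they were 48.1, 53.5, 29.5, 23.1 and 22.9. The vehicle values of M1 and M3 and the GPI value of M2 were the highest, and these were the libraries with the highest Cdh16. The part of mesonephric cells in the Krt8 values was not tested. The log2 fold change of Krt8 was -0.30 (SE 0.46, 95% interval -1.29 to 0.70; edgeR, adjusted p = 0.711), with GPI the higher of the pair in 3 of 5 embryos. It was 0.12 without replicate 1 and 0.07 without replicate 3, but -0.82 without replicate 2 and -0.68 with no replicate block. It was 0.77 without embryos M1 and M3 and 0.18 without M1, M2 and M3, both left out after the marker values were seen (edgeR, adjusted p = 0.392 and 0.889). On the log2 scale Krt8 differed by -1.58 in M1, 1.88 in M2 and -1.50 in M3. Leaving out M1 and M3 while keeping M2 could thus only raise the value.

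**Figure D2:**
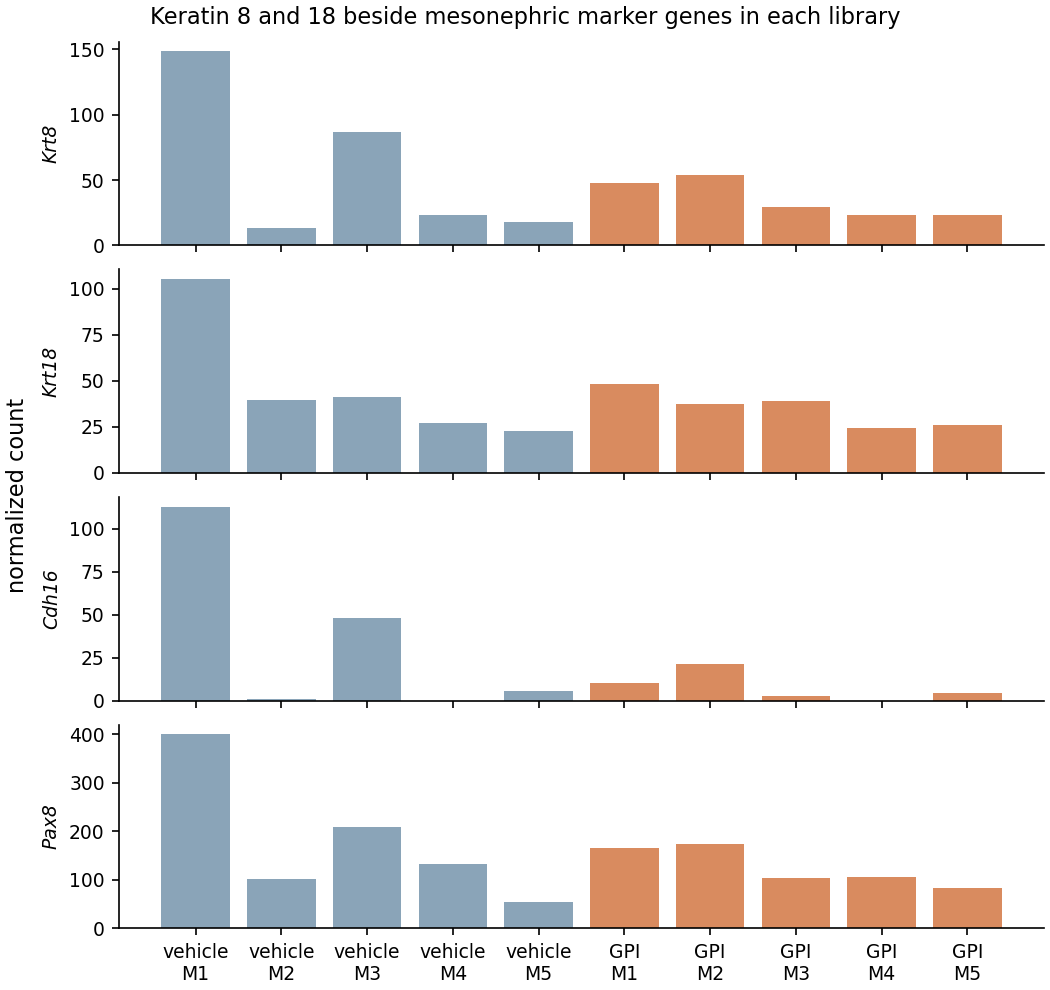
Normalized counts of Krt8 and Krt18 above those of the mesonephric genes Cdh16 and Pax8, with a bar for each of the 10 libraries (blue-grey, vehicle; orange, GPI; embryos M1 to M5). The M1 vehicle bar is the tallest in each panel, and Krt8, Cdh16 and Pax8 share their next 2 libraries, vehicle M3 and GPI M2. The mesonephric list had 12 genes, and Gata3, Calb1, Ret, Sim1, Lhx1, Tfap2b and Cdh6 were not highest in the same 3 libraries. Cdh16 was named after its values were seen and did not pass the filter on low counts.

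Krt18 had normalized counts of 105.2, 39.4, 41.3, 26.9 and 22.9 in vehicle libraries M1 to M5. In GPI libraries it had 48.1, 37.3, 39.0, 24.2 and 26.2. The M1 vehicle library lay far above the other libraries, which ranged together in both groups. The log2 fold change was -0.27 (SE 0.29, 95% interval -0.89 to 0.35; edgeR, adjusted p = 0.561), and GPI was the higher of the pair in 1 of 5 embryos. It was -0.05 without replicate 1 and 0.00 without M1, M2 and M3.

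Krt7 (Entrez Gene 110310, chr15:101412403-101427806, plus strand), a type II keratin of simple and ductal epithelia, lay between 23.9 and 52.0 normalized counts in vehicle libraries and between 20.1 and 57.7 in GPI libraries. Its log2 fold change was -0.02 (SE 0.37, 95% interval -0.81 to 0.78; edgeR, adjusted p = 0.983). Krt19 (Entrez Gene 16669, chr11:100140810-100145926, minus strand), a type I keratin, lay between 42.8 and 88.6 in vehicle libraries and between 27.4 and 91.8 in GPI libraries. Its log2 fold change was -0.05 (SE 0.22, 95% interval -0.53 to 0.43; edgeR, adjusted p = 0.913). The intervals of the 4 keratins hold changes of either sign, and those of Krt7 and Krt8 include the 0.68 seen for Upk1b.

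Keratin chains were also compared as ratios of counts within a library. Type II over type I counts (Krt7 and Krt8 over Krt18 and Krt19) had a mean of 0.801 ± 0.382 with vehicle and 0.802 ± 0.302 with GPI (SD, n = 5). The ratio of Krt8 to Krt18 was 1.41 in M1 vehicle, 2.11 in M3 vehicle and 1.43 in M2 GPI, and between 0.333 and 1 in the other libraries. The mean log2 differences between GPI and vehicle were 0.05 for type II over type I, 0.10 for Krt8 over Krt18 and 0.02 for Krt7 over Krt19, each higher in 3 of 5 embryos. Exact 2-sided sign-flip permutation tests over 5 embryos gave p = 0.938, 0.812 and 0.938, adjusted p = 0.938 for each of the 3, and with 5 embryos such a test cannot reach 0.05.

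Of 46 other keratin genes in the table, 2 were tested, 18 had no count in any library, and 0 were called by edgeR, with 0 at an unadjusted p under 0.05 and 0 by DESeq2. Krt10, a type I keratin of stratified epithelium, was at 78.2 ± 7.83 normalized counts with vehicle and 71.0 ± 26.2 with GPI (edgeR, adjusted p = 0.625). Krt222 was at 13.1 ± 0.928 and 18.9 ± 9.16 (edgeR, adjusted p = 0.513). Among other uroplakins, Upk1a had 0.8 to 13.1 normalized counts in a library, Upk2 had counts in 2 libraries, and Upk3a and Upk3bl had 0 in each of the 10.

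Relatives of the 8 genes numbered 9, of which 4 were tested, 1 was called higher and 0 lower, with a median log2 fold change of 0.16. By DESeq2 and at an unadjusted p under 0.05 the counts were the same, 1 and 0. The call was Lrrn1, a leucine-rich repeat protein related to Lrrn4, at 719 ± 124 normalized counts with vehicle and 1154 ± 55.1 with GPI (log2 fold change 0.70, SE 0.09; edgeR, adjusted p = 8.03e-05).

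Other genes of the coelomic epithelium or mesothelium were called in both directions. Of the 15 tested of 18 listed, 4 were called higher and 4 lower, with a median log2 fold change of -0.08. The higher genes were Gpm6a, a membrane glycoprotein (0.65, SE 0.12), Gata4, a transcription factor of the gonad (0.53, SE 0.09), Bnc1, a zinc finger protein of mesothelium (0.43, SE 0.13), and Pdpn, podoplanin (0.42, SE 0.10), on the log2 scale. The lower genes were Podxl, an apical sialomucin (-0.49, SE 0.08), Ezr, ezrin, which ties the membrane to actin (-0.61, SE 0.10), Emx2, a homeobox factor of the urogenital ridge (-0.73, SE 0.13), and the complement gene C3 (-2.71, SE 0.53). The edgeR adjusted p of Gpm6a was 0.00168, that of Bnc1 0.0303 and that of C3 0.00205. The Bnc1 call was lost without replicate 1, 2, 4 or 5, where its log2 fold change ran from 0.30 to 0.45, under library totals alone (0.38) and without embryos M1, M2 and M3 (0.43). The Pdpn call was lost without embryos M1 and M3 (0.32), and the Emx2 call without embryos M1, M2 and M3 (-0.65; edgeR, adjusted p = 0.0602, in a range of 8.86e-07 to 0.0602 over its alternatives). Gata4, Pdpn and C3 were named after their values were seen. Endothelial cells also express Podxl, and the summed counts of the endothelial list were at 9.81% of vehicle with GPI. Their part in the Podxl value was not tested, nor was that of other cell types in the other values of this list.

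Wt1, the transcription factor of the coelomic epithelium and supporting cells, was at 7041 ± 581 normalized counts with vehicle and 6403 ± 668 with GPI (log2 fold change -0.14; edgeR, adjusted p = 0.182), and was called lower only under library totals alone (-0.19). Lhx9, a homeobox factor of the same layer, was at 1468 ± 244 and 1488 ± 160.4 (0.03; edgeR, adjusted p = 0.866), with a sign that turned under library totals alone (-0.02) and without replicate 5 (-0.07). Dmkn and Calb2 were at 0 in 5 or more libraries. Of the genes that mark this layer, Upk3b, Upk1b, Lrrn4, Gpm6a and Bnc1 were detected in each library, whereas Msln, Dmkn and Calb2 were at or near 0.

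**Figure D3:**
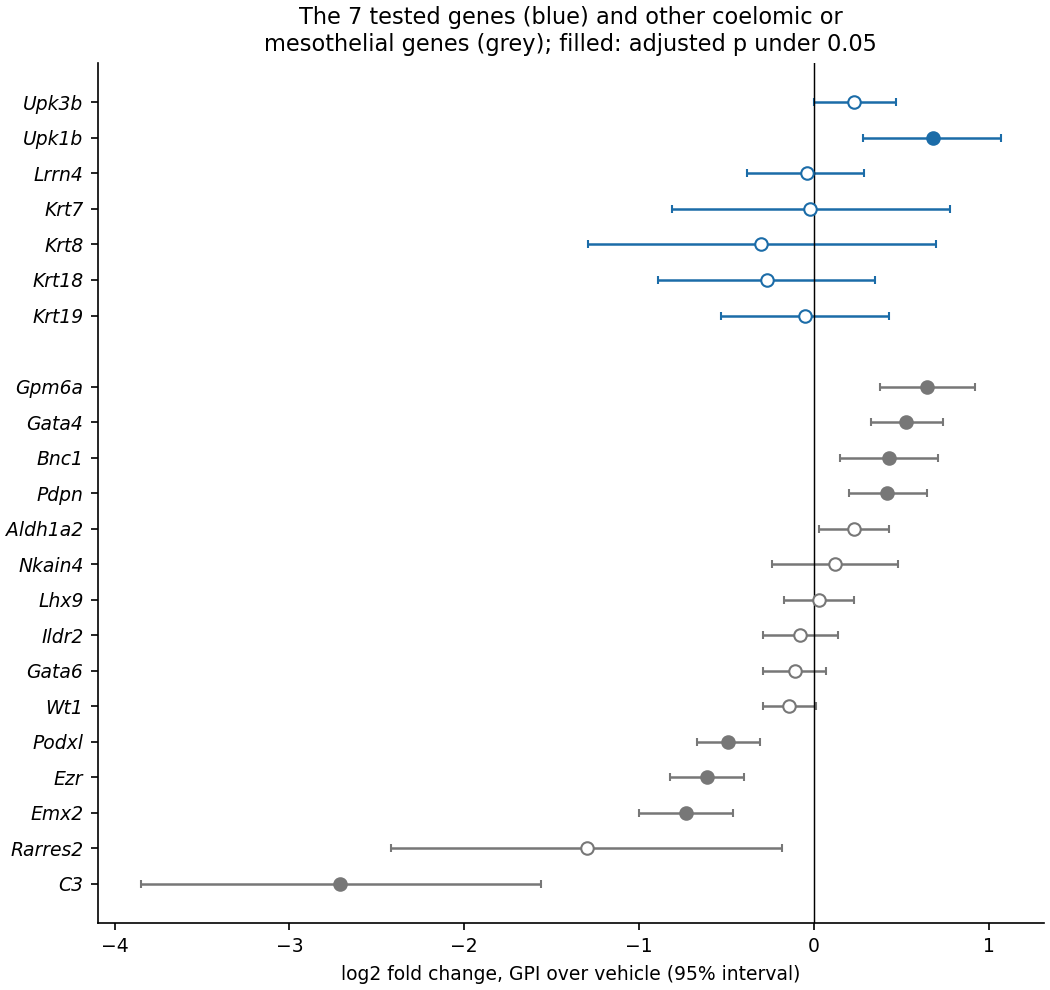
Log2 fold changes of GPI over vehicle with 95% intervals for the 7 tested genes (blue) and 15 other coelomic or mesothelial genes (grey), with filled points where the edgeR adjusted p is under 0.05. Upk1b is filled at 0.68, and the grey points hold 4 filled on each side of 0.

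The desmosome and linker proteins that anchor keratin filaments had 1 of 14 tested genes called higher and 3 lower, with a median log2 fold change of -0.08. Dsg2, a desmosomal cadherin, rose (0.70, SE 0.17). Jup, plakoglobin, fell (-0.62, SE 0.10), as did Dsc2 (-0.73, SE 0.22) and Plec, plectin (-0.37, SE 0.08). The Dsc2 call was lost without replicate 1 (-0.54), without replicate 4 (-0.59), without embryos M1 and M3 (-0.69) and without embryos M1, M2 and M3 (-0.80), and the Dsg2 call was lost in the last of these (0.92). Dsp, desmoplakin, was at 1146 ± 291 with vehicle and 1141 ± 223 with GPI. Dsc2 and Dsp were named after their values were seen, as were Esrp1, Nefl and Lmna.

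Of 17 tested epithelial junction and polarity genes, 2 were called higher and 5 lower, with a median log2 fold change of -0.39. The cadherin Cdh1 was at 85.9 ± 70.4 normalized counts with vehicle and 12.1 ± 8.64 with GPI (log2 fold change -2.65, SE 0.44; edgeR, adjusted p = 0.000576). Epcam, an epithelial adhesion molecule, was at 119 ± 91.4 and 23.9 ± 15.3 (-2.19, SE 0.41; edgeR, adjusted p = 0.00145). Fetal germ cells also express Cdh1 and Epcam, and the germ cell list had 5 of 6 tested genes called lower and 0 higher, with a median of -4.76. In vehicle libraries M1 to M5 Cdh1 was at 189.3, 59.7, 125.1, 20.9 and 34.3 and Epcam at 277.9, 68.0, 110.5, 83.7 and 54.1, beside a germ cell sum of 986.6, 2067.9, 1264.1, 1718.2 and 658.3. In GPI libraries Cdh1 was at 10.1, 25.9, 10.5, 2.1 and 12.0 and Epcam at 21.3, 48.6, 22.8, 6.3 and 20.7, beside a germ cell sum of 135.4, 119.2, 43.7, 44.2 and 110.1. Within each group both genes were highest in the libraries with the highest Cdh16, and the germ cell sum was highest in M2 vehicle and M1 GPI. Between the gonads of an embryo, Cdh1, Epcam and the germ cell sum were each lower with GPI in every embryo. That includes M2, where Cdh16 was at 1.2 with vehicle and 21.1 with GPI. The part of either cell type in these values was not tested. Tjp1 (-0.87, SE 0.07) and Esrp1 (-2.73, SE 0.55) fell, and the polarity genes Pard6b (0.75, SE 0.12) and Prkci (0.58, SE 0.09) rose. Without embryos M1, M2 and M3, the calls of Cdh1 and Esrp1 were lost, both at -2.12.

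Among 7 genes of epithelial-mesenchymal transition 1 was called lower, Zeb1 (-0.47, SE 0.07), and 0 higher, with 0 higher at an unadjusted p under 0.05 and 0 by DESeq2, and the median was 0.06. Other intermediate filament genes had 1 of 9 called higher and 4 lower, with a median of -0.43. Vim, vimentin, was at 16018 ± 2085 normalized counts with vehicle and 8160 ± 138 with GPI (log2 fold change -0.96, SE 0.07; edgeR, adjusted p = 7.44e-07). Nes (-1.36, SE 0.07), Nefl (-2.90, SE 0.29) and Lmna (-1.11, SE 0.23) were also lower, and Synm was higher (1.04, SE 0.10). Endothelial cells also express Vim and Nes, and 8 of 8 tested endothelial genes were called lower. The summed normalized counts of that list were 7696.9, 7932.9, 7347.6, 8478.7 and 7528.8 in vehicle libraries M1 to M5 and 856.2, 1006.1, 696.0, 555.5 and 710.4 in GPI libraries, with Cdh5 the most abundant gene. The part of endothelial cells in the Vim and Nes values was not tested.

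The summed normalized counts of Upk3b, Upk1b, Lrrn4 and Msln were 732 ± 92.0 with vehicle and 854 ± 80.8 with GPI, or 117% of vehicle, and those of the 4 keratins 199 ± 116 and 164 ± 34.6, or 82.6%. The keratin sum was 394.2 in M1 vehicle, beside 118.5 to 218.9 in the other vehicle libraries, and without replicate 1 the means were 150.2 and 153, or 102%. Over the same libraries the germ cell sum was at 6.76% of vehicle and the endothelial sum at 9.81%, while the Sertoli sum was at 165% and the Leydig sum at 436%. Called higher and lower were 7 and 0 of 8 tested Sertoli genes, 4 and 0 of 4 Leydig, 0 and 8 of 8 endothelial, 0 and 3 of 4 leukocyte, 0 and 1 of 4 pre-granulosa, and 1 and 3 of 5 interstitial. Each 0 among these was also 0 at an unadjusted p under 0.05 and by DESeq2. The 3 lower interstitial calls fell to 0 without replicate 3, without replicate 4 or without embryos M1, M2 and M3. The log2 fold changes of Gli1 and Tcf21, which were among the 3, were -0.42 and -0.30 with all embryos and ran from -0.46 to -0.38 and from -0.37 to -0.26 with 1 embryo left out. The part of these shifts in the values of the 8 genes was not tested.

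**Figure D4:**
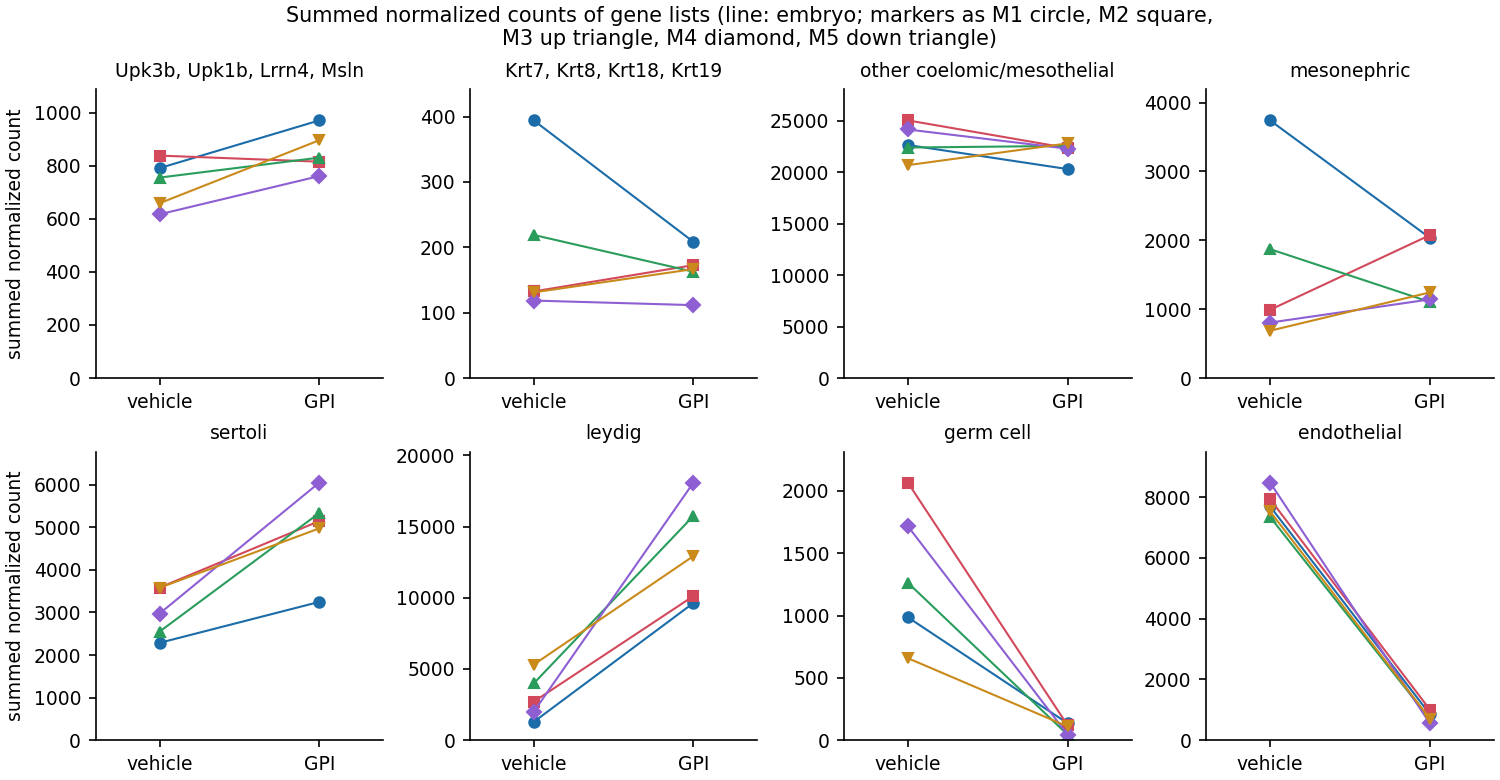
Summed normalized counts of 8 gene lists in vehicle and GPI libraries, with a line for each embryo. The sum led by Upk3b is at 117% of vehicle with GPI, while the germ cell sum is at 6.76% and the Leydig sum at 436%.

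Genes whose values ran most like these across the 10 libraries were ranked among 11101 tested genes averaging 50 counts or more per library, by Pearson correlation with the mean standardized profile, as a description. For the profile of Upk3b, Upk1b and Lrrn4 they were Mdm2 (r = 0.92), Naf1, Armc9, Gm14403 and Thbs1 (r = 0.87). With treatment means subtracted they were Zim1 (r = 0.95), Nedd4l, Dennd4c, Dnm1 and P3h3 (r = 0.92). For the profile of the 4 keratins they were Fut9 (r = 0.91), Egfl6, Met, Lipa and Matn2 (r = 0.88). With treatment means subtracted they included Pgm5 (r = 0.94), Pik3r1, Cnksr2 and Prr36 (r = 0.91). The 10 libraries share embryos in pairs, and so many genes were ranked that values of this size carry no test.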

How the data were processed

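RNA was sequenced from 10 libraries of cultured male gonads, 5 per treatment. The authors amplified RNA, sequenced paired ends, aligned reads to mm10 with STAR 2.5 and deposited raw counts per gene from featureCounts (Subread 1.5.0-p1), counted without strand against RefSeq models. Strandless counting cannot separate a gene from an antisense partner; 0 of the 8 genes overlap another entry of the table. A Krt8 pseudogene is annotated, so Krt8 counts are uncertain, as are those of C3, Plec, Prkci, Zeb1, Pax2, Gli1, Cdh5, Gm14403, Dnm1, Matn2 and Pgm5, which overlap other entries.

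Counts were fitted with edgeR 4.0.16 (R 4.3.3): TMM scaling, filterByExpr with a minimum count of 10 and total of 15, embryo as replicate block, and a quasi-likelihood F test at an adjusted p of 0.05. Without the replicate block 3108 genes were called, beside 3198 with it. The pairing comes from the labels, which give the embryo of each library; deviations from group means correlated at -0.04 to 0.16 within embryos (mean 0.06), and at a mean of -0.01 between embryos. Libraries of the same treatment differed beyond sampling noise (chi-square per degree of freedom 6.42 to 27.8). DESeq2 1.42.0 was an alternative, as were other scalings and filters, removal of a GC and length trend (95.4% of tested genes had values), and leaving out each embryo. Log2 values of genes in single libraries used a prior count of 2, and log2 fold changes came from the fit. The SE of an edgeR fold change was its absolute log2 value over the square root of the F statistic. The script was tested on simulated data.

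The 8 genes and the 15 gene lists were chosen with earlier results of these data known. Named were the 8 genes, other keratins with a mean of at least 10 counts, other uroplakins, the 3 genes of smallest p in each list, defining markers, and the 5 genes most like each profile; others are marked as named after their values were seen. Of the listed genes, Muc16 was not analysed here. Results of some listed or ranked genes are not reported here.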

Additional observations from a re-analysis of the deposited data

Results flagged for a closer look

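Values of named genes, list sums and ratios were screened in each group of 5 libraries for a highest or lowest library whose gap to its neighbour exceeded 0.71 of the range. Of 189 groups, 15 met this. Chance gives about 1 in 20 for normally distributed values, and whether that rate holds for these counts was not tested. Lhx1 and Sim1 met the rule in GPI libraries with the other libraries of the group at 0.0.

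Among the 8 genes, Krt18 was at 105.2 normalized counts in the M1 vehicle library, beside 22.9 to 41.3 in the other vehicle libraries, and Msln was at 5.3 in the M4 GPI library, beside 0.0 to 0.8. Among mesonephric genes, Pax2 was at 29.2 and Lhx1 at 2.4 in M2 GPI, and Sim1 at 1.0 in M3 GPI. The M1 vehicle library also held the high value of Epcam, 277.9, beside 54.1 to 110.5.

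The M1 GPI library was far from the other GPI libraries in C3, at 154.5 beside 7.4 to 19.6, in Plec, at 1043.1 beside 1215.2 to 1266.3, in Synm, at 528.3 beside 761.3 to 829.2, and in the summed coelomic and mesothelial list, at 20284.8 beside 22263.4 to 22776.2. Without replicate 1 the log2 fold change of C3 was -3.67 (edgeR, adjusted p = 2.96e-07, in a range of 2.96e-07 to 0.0213 over its alternatives). Krt10 was at 117.7 in M5 GPI, beside 55.8 to 63.2. Emx2 was at 790.8 in M5 vehicle, Pdpn at 712.4 and Tyrobp at 79.9 in M2 vehicle, and Rspo1 at 302.0 in M4 GPI.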

How the results depend on the processing

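The spread between vehicle libraries was wide for Krt8, with an SD of 58.9 on a mean of 57.8 normalized counts. Leaving out 1 embryo at a time gave 969 to 1430 genes called higher (1544 with all), 0 to 1 of the 8 genes called higher, and log2 fold changes of 0.48 to 0.80 for Upk1b, -0.16 to 0.13 for Lrrn4, -0.30 to 0.29 for Krt7, -0.82 to 0.12 for Krt8, -0.38 to -0.05 for Krt18, -0.18 to 0.08 for Krt19, -0.07 to 0.09 for Lhx9, -0.02 to 0.21 for Snai2 and -0.18 to 0.35 for Gata3. Interstitial genes called lower ran from 0 to 3. Mean log2 ratio differences ran from -0.26 to 0.42 for type II over type I, -0.40 to 0.49 for Krt8 over Krt18 and -0.26 to 0.38 for Krt7 over Krt19. The cause was not tested.

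With the GC and length trend removed and the replicate block kept, 2 of the 8 genes were called higher, with Upk3b at 0.32, Lrrn4 at 0.04 and Krt7 at 0.08, and interstitial genes called lower numbered 1. Under library totals alone Lhx9 was at -0.02. With no replicate block Gata3 was at -0.01, Krt8 at -0.68 and Krt18 at -0.42, and no call among the 8 genes changed. With at least 10 counts in every library, 2 junction genes and 1 germ cell gene were called lower, as fewer genes were tested.

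Both of the following were chosen after seeing the data. The first leaves out the 2 embryos in which Krt7, Krt8, Cdh6 and each of the 3 ratios were lower with GPI, and keeps M2. For these genes and ratios it could thus only raise the difference. Without embryos M1 and M3, 924 genes were called higher, 0 of the 8 genes were called (edgeR; DESeq2 with all embryos called 1), and log2 fold changes were 0.70 for Upk1b, 0.61 for Krt7, 0.77 for Krt8, 0.35 for Pax8 and 0.01 for Krt10; 4 junction genes and 1 mesonephric gene were called higher and 1 interstitial gene lower. Without M1, M2 and M3, 1849 genes were called, 756 higher and 1093 lower, 0 of them among the 8 genes, with fewer samples. Log2 fold changes were then 0.41 for Upk3b, 0.32 for Upk1b and 0.26 for Lrrn4. Those of the keratins were 0.74 for Krt7, 0.18 for Krt8, 0.00 for Krt18, -0.34 for Krt19 and 0.22 for Krt10. Pax8 was at 0.12, and Krt19 was at -0.26 without M1 and M3. Mean log2 ratio differences without M1 and M3, then without M1, M2 and M3, were 0.92 and 0.75 for type II over type I, 0.82 and 0.18 for Krt8 over Krt18 and 0.88 and 1.10 for Krt7 over Krt19. Without M1, M2 and M3, 0 desmosome and 0 interstitial genes were called higher, 2 junction and 0 interstitial genes lower, and 1 mesonephric gene higher. The likeness ranking was run with 1 setting.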
